A study of Rattus norvegicus with 4 samples.

Results

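The genes described here encode the protein machinery of pre-mRNA splicing: SR proteins, heterogeneous nuclear ribonucleoproteins (hnRNPs), protein subunits of the spliceosomal small nuclear ribonucleoproteins (snRNPs), the SF3 and U2AF factors, the PRPF proteins, and a set of SR-related proteins and kinases. They were selected by a rule on gene symbols. It takes the families Srsf, Hnrnp, Snrp, Sf3a, Sf3b, U2af, Prpf, Luc7l and Clk, and Srrm1, Srrm2, Rbm5, Rbm10, Rbm25 and Rbm39. No measured value enters this rule, but earlier results of these data were known when it was set. Of the 24005 genes in the deposited tables, 82 met this rule, and 79 of them had enough reads to be tested. The other 3 were Snrpn, with 9 reads in one osteoarthritis library and 0 elsewhere, Srsf8, with 3 reads in the same library and 0 elsewhere, and Snrpd2l, with 1 to 7 reads. A count of 0 at these depths allows at most 3 reads, or 0.102 to 0.13 CPM in a library (CPM, counts scaled to the library total times its TMM factor, a scaling factor from edgeR).

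Introns are removed from pre-mRNA by the spliceosome, which is built anew on each intron. The U1 snRNP binds the start of the intron, U2AF and SF3 factors with the U2 snRNP bind its end and the branch point, and the U4, U5 and U6 snRNPs with the PRPF proteins then form the catalytic core. A ring of Sm proteins sits on the RNA of U1, U2, U4 and U5, and a ring of LSm proteins on that of U6. SR proteins mostly promote the use of nearby splice sites, hnRNPs often repress it, and CLK kinases phosphorylate SR proteins. These genes are expressed in nearly every cell, and their transcripts are abundant in dividing cells.

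The series holds RNA of rat cartilage, from males of the outbred Sprague Dawley strain, with labelled age 8 to 12 weeks and weight 140 to 230 g. The control group is 2 libraries labelled healthy with control as treatment. The osteoarthritis group is 2 libraries labelled osteoarthritis with XGS as treatment, where XGS is the herbal preparation Xiaogu San and the disease model is monosodium iodoacetate, an inhibitor of glycolysis. Disease and preparation are carried by the same libraries, so their contributions cannot be told apart, and the design text speaks of mice for the normal animals although both controls are labelled rat. Dose, time after induction, the joint and whether each library is a separate animal are not stated by any label, so p-values measure the spread between these libraries, which may be technical.

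The libraries held 24492412 to 28270779 counts. Chondrocyte markers were detected in each of them, with 14 of 14 markers listed. Their summed level was 25570 and 37260 CPM for the controls and 4254 and 8254 CPM for the osteoarthritis libraries. Of these markers 10 lay below both controls and 4 overlapped them. Col2a1 alone had 13919 and 26813 CPM in the controls and 3431 and 385 CPM in osteoarthritis. Acan, which overlapped, had 493 and 587 CPM, then 70.9 and 2703 CPM. Markers of marrow cells were detected too: all tested erythroid (14), neutrophil (13) and B lineage (14) markers lay below both controls in both osteoarthritis libraries. So did 18 of 18 markers of dividing cells, whose sum was 1116 and 1646 CPM for the controls and 167 and 377 CPM for the osteoarthritis libraries, and no marker of these lists was at 0 in every library. Globin genes took 12.0% and 12.4% of control counts and 0.219% and 0.555% of osteoarthritis counts. The osteoarthritis libraries also differed from each other: adipocyte markers summed to 10370 CPM in the first and 154 CPM in the second, and tendon and ligament markers to 466 and 7580 CPM. So did the controls, with skeletal muscle markers at 2654 and 125.5 CPM and osteoblast and osteocyte markers at 8043 and 37550 CPM. Of these 8 osteoblast and osteocyte markers, 6 lay below both controls in osteoarthritis and 2 overlapped them. Mitochondrial ribosomal RNA, an RNA without a normal poly(A) tail, took 2.33% and 0.51% of osteoarthritis counts and 0.228% and 0.181% of control counts.

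The comparison asked how transcripts of the splicing machinery differed between control and osteoarthritis cartilage. The families did not move as one: transcripts of most snRNP proteins stood lower in both osteoarthritis libraries, while those of several SR-related and PRPF proteins stood higher. No single gene passed the test. The edgeR quasi-likelihood test, with p adjusted by Benjamini-Hochberg over 15282 genes, called 0 members higher and 0 lower, against a background of 0% of all tested genes in each direction, and the smallest adjusted p of a member was 0.0869. At an unadjusted p under 0.05 there were 13 members higher and 14 lower, with a background of 12.2% and 11.2% of tested genes. DESeq2 called 8 members higher and 8 lower, where it called 7.11% and 7.97% of all genes, and limma-voom called 0 and 0.

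In both osteoarthritis libraries 27 members (34.2%) lay above both controls, where 30% of all tested genes did, and 27 (34.2%) lay below both, where 26.5% did. The shares for the whole set are thus near those of all genes. With upper quartile scaling the split was 21 above and 33 below, where all genes had 27.3% and 29.1%. The median log2 fold change, osteoarthritis over control throughout, was -0.06 for the 79 members and 0.15 for all tested genes. The spread ran from -2.66 for Hnrnpab to 2.30 for Luc7l3. Fewer cells of a type and less RNA per cell cannot be told apart in such bulk samples.

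**Figure D1:**
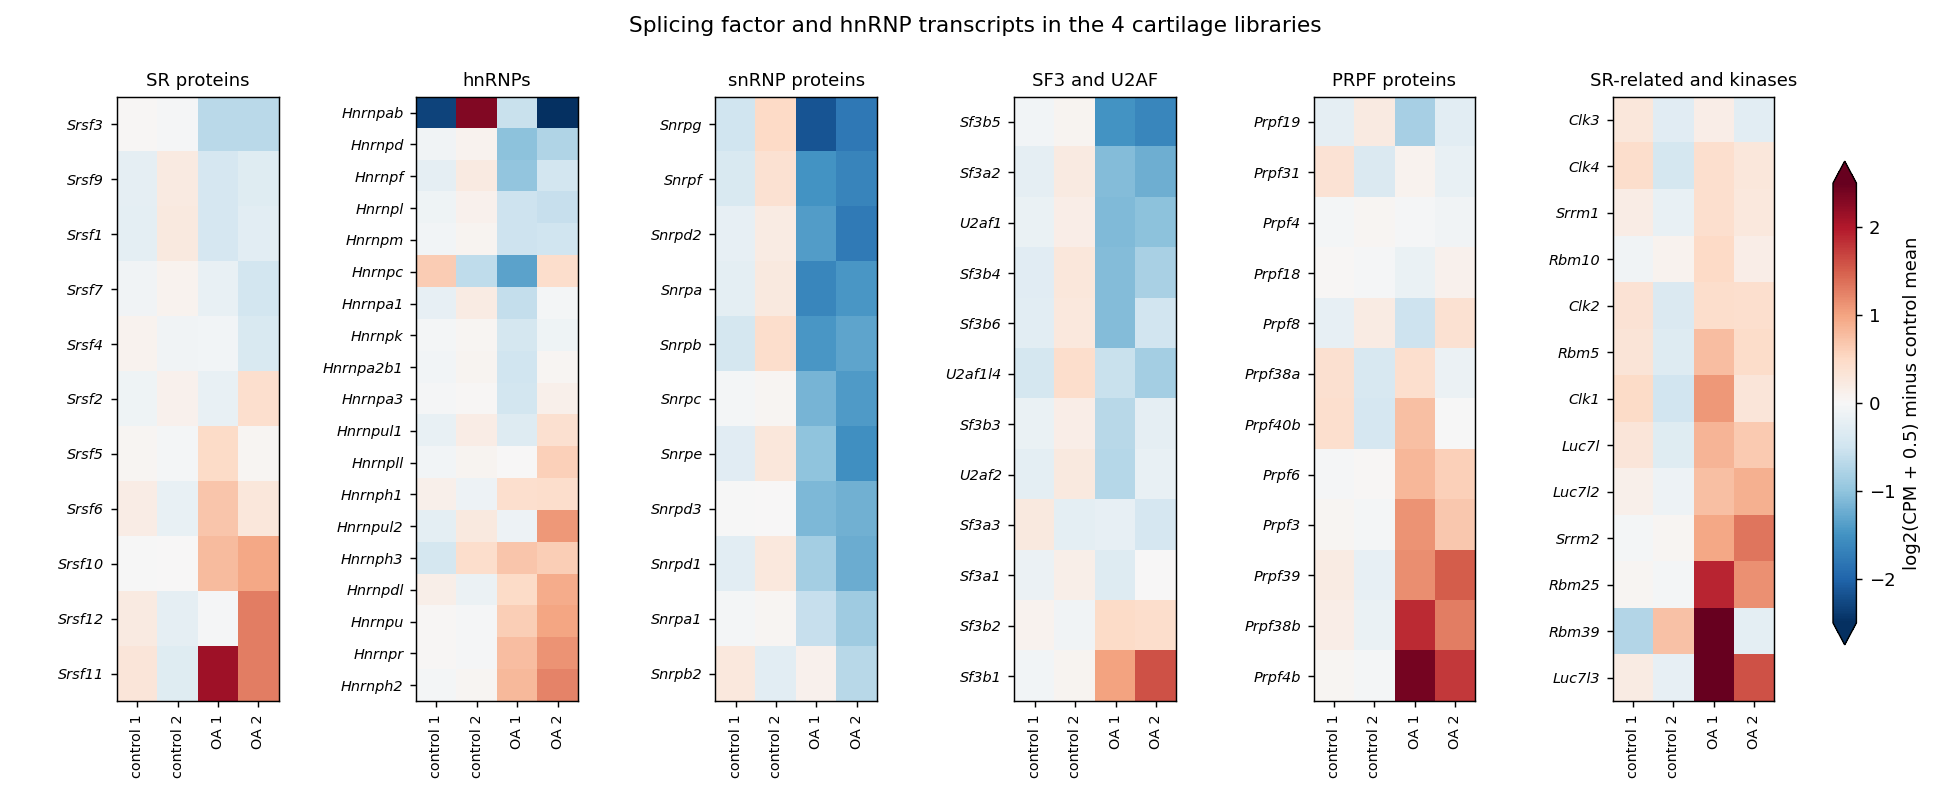
Each row is 1 of 78 tested members, in 6 panels by family, and each column 1 library (OA, osteoarthritis). Colour is log2(CPM + 0.5) minus the control mean, and values past 2.5 take the end colour. The snRNP panel is blue in both osteoarthritis libraries except for Snrpb2, and the lowest rows of the PRPF and SR-related panels are red in both, except Rbm39.

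Of the 11 tested snRNP proteins, 0 lay above both controls and 10 lay below both, where 26.5% of all tested genes lay below. Their median log2 fold change was -1.31, and all 11 values were negative, from -2.09 to -0.27. The Sm ring, the core of U1, U2, U4 and U5 snRNPs, was lower in all 7 of its subunits. Snrpg, the subunit SmG, stood at 34.0 and 68.6 CPM in the control pair and 10.4 and 13.7 CPM in the osteoarthritis pair (log2 fold change -2.09 ± 0.47), with an adjusted p of 0.109 by edgeR's quasi-likelihood test, where ± gives the standard error here and below. The lower control was still above both osteoarthritis libraries by more than a doubling. Snrpd2, subunit SmD2, had 114 and 153 CPM in the control pair and 49.9 and 38.4 CPM in the osteoarthritis pair (log2 fold change -1.60 ± 0.35, edgeR adjusted p = 0.107). Snrpb, subunit SmB, had 99.3 and 182 CPM in the control pair and 48.8 and 53.7 CPM in the osteoarthritis pair (log2 fold change -1.46 ± 0.41, edgeR adjusted p = 0.14). In each of these the groups did not overlap, and on the log2 scale the controls differed from each other more than the osteoarthritis libraries did. Snrpf, Snrpe, Snrpd3 and Snrpd1, the remaining Sm subunits, had log2 fold changes of -1.63, -1.29, -1.17 and -1.08. The summed level of the 7 Sm genes was 731 and 1020 FPKM (counts scaled by gene length and library total) in control and 421 and 266 FPKM in osteoarthritis.

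Snrpa and Snrpc, 2 proteins specific to U1, also stood lower. Snrpa, a U1 protein that binds a stem-loop of U1 RNA, had 38.2 and 54.2 CPM in the control pair and 14.4 and 16.2 CPM in the osteoarthritis pair (log2 fold change -1.59 ± 0.35, edgeR adjusted p = 0.109). Snrpc, a U1 protein that helps U1 hold the start of the intron, had 68.7 and 73.7 CPM in the control pair and 31.3 and 26.2 CPM in the osteoarthritis pair (log2 fold change -1.31 ± 0.31). Both were lower in each osteoarthritis library than in each control. The U2-specific pair was closer to the controls: Snrpa1 had a log2 fold change of -0.74 ± 0.36 and Snrpb2 one of -0.27 ± 0.42, and Snrpb2 was the snRNP protein whose libraries overlapped, with 40.6 and 28.3 CPM in the control pair and 36.3 and 20.9 CPM in the osteoarthritis pair. DESeq2 called 7 of the snRNP genes lower, namely Snrpg, Snrpd2, Snrpa, Snrpf, Snrpc, Snrpb and Snrpd3 (adjusted p from 0.00408 to 0.0357). It called 7.97% of all genes lower. The count of snRNP genes below the controls was 10 or 11 of 11 tested when any single library was left out. Of all tested genes, 33.3% to 36.8% lay below in those fits.

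Markers of dividing cells and of marrow were lower in the same libraries, and their part in the snRNP result was not tested. Short genes as a class were also lower. The tested snRNP genes had a median length of 922 bp, and of 1370 tested genes of up to 1 kb, 62% lay below both controls, with a median log2 fold change of -0.95. The trend of fold change with gene length over all tested genes was then subtracted, a step added after the data were seen. After it, 9 of 11 snRNP genes were still negative and the median of the 11 was -0.52. The other 2 were Snrpe (0.07) and Snrpb2 (0.25). Several of these genes have processed copies elsewhere in mammalian genomes, and how reads were shared among copies is not stated by any label, so their levels are uncertain.

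Since the Sm genes stood lower together, their promoters are shown, here the 250 bases before and 50 after the RefSeq start on assembly GRCr8, 5′ to 3′ along the gene. All 82 members matched a RefSeq symbol and 75 had a promoter sequence. Capitals mark the ETS core CCGGAAG or its reverse complement, searched on both strands. The 3 shown are the snRNP genes below both controls that hold it and have the smallest p.
Snrpg (chr4:120369461-120369760, plus strand): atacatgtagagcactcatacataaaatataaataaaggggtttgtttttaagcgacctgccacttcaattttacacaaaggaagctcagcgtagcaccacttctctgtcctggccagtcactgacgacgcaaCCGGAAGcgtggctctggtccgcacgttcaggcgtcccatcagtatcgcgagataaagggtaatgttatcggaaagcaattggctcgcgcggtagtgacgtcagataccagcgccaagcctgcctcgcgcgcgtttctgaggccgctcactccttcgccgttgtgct
Snrpb (chr3:137832430-137832729, minus strand): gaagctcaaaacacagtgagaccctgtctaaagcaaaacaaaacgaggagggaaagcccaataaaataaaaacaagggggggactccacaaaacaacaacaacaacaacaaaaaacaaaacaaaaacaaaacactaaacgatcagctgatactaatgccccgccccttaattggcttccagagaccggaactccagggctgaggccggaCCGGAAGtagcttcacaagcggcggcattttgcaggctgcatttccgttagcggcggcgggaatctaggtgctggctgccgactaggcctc
Snrpe (chr13:47609202-47609501, minus strand): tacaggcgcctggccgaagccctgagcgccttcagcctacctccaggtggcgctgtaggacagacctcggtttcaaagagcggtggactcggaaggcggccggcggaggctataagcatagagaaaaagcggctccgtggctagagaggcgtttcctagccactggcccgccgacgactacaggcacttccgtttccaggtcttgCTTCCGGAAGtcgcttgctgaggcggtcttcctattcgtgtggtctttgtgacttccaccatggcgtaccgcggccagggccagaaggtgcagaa
In Snrpe the 2 matches, one on each strand, overlap. The letters were present in 5 of 11 snRNP promoters (45.5%), in 10 of 27 promoters of members below both controls (37%) and in 3 of 23 of members above both (13%). They were present in 18 of the 75 member promoters (24.0%), in 15.7% of 10967 promoters of tested genes and in 9.22% of 27457 RefSeq promoters. A match describes the letters only, and binding was not measured here.

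In the SF3 and U2AF families most genes stood lower, and Sf3b1 and Sf3b2 stood higher. Of 12 tested genes, 7 lay below and 2 above both controls, where 26.5% and 30% of all tested genes did, and the median log2 fold change was -0.61, or -0.37 without the second control. Sf3b5, a small subunit of the SF3B complex that grips the branch point, had 91.3 and 101 CPM in the control pair and 33.8 and 30.5 CPM in the osteoarthritis pair (log2 fold change -1.58 ± 0.30, edgeR adjusted p = 0.0911, DESeq2 adjusted p = 0.0021). Sf3b1, the scaffold of the same complex, stood on the other side, with 132 and 145 CPM in the control pair and 279.8 and 416 CPM in the osteoarthritis pair (log2 fold change 1.33 ± 0.39, edgeR adjusted p = 0.15, DESeq2 adjusted p = 0.0215). Neither gene had overlapping groups. The ratio of Sf3b1 to Sf3b5 FPKM, in which no library scaling enters, was 0.288 and 0.289 in control and 1.66 and 2.73 in osteoarthritis. This pair was set side by side after its values were seen. Sf3b1 is 3568 bp long and Sf3b5 713 bp. With the trend of fold change with gene length subtracted, Sf3b1 was at 0.92 and Sf3b5 at -0.70. The part of length in the ratio was not tested.

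Other subunits lay between these ends. Sf3b2, which contacts RNA next to the branch point, had a log2 fold change of 0.47 ± 0.32 and lay above both controls, with 128 and 114 CPM against 169.6 and 165 CPM. Sf3a2, of the SF3A complex, had 72.8 and 100.4 CPM in the control pair and 40.1 and 36.2 CPM in the osteoarthritis pair (log2 fold change -1.18 ± 0.33, edgeR adjusted p = 0.138). Sf3b4, Sf3b6 and Sf3b3 also lay below both controls, at -0.97, -0.80 and -0.45. Sf3a1 and Sf3a3 overlapped the controls, at -0.15 and -0.33. U2af1, the subunit that reads the AG at the intron end, had 64.2 and 81.2 CPM in the control pair and 33.3 and 35.0 CPM in the osteoarthritis pair (log2 fold change -1.09 ± 0.31, edgeR adjusted p = 0.144), and its relative U2af1l4 had a log2 fold change of -0.77 ± 0.43. U2af2, its partner that binds the polypyrimidine tract, overlapped the controls, with 119.8 and 169 CPM against 87.3 and 126 CPM (-0.44 ± 0.38). Whether U2af1 and U2af2 differ in their response was not tested. With the length trend subtracted, 9 of 12 SF3 and U2AF genes were negative and their median was -0.44. Sf3b6 was then at 0.09 and U2af1l4 at -0.03.

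**Figure D2:**
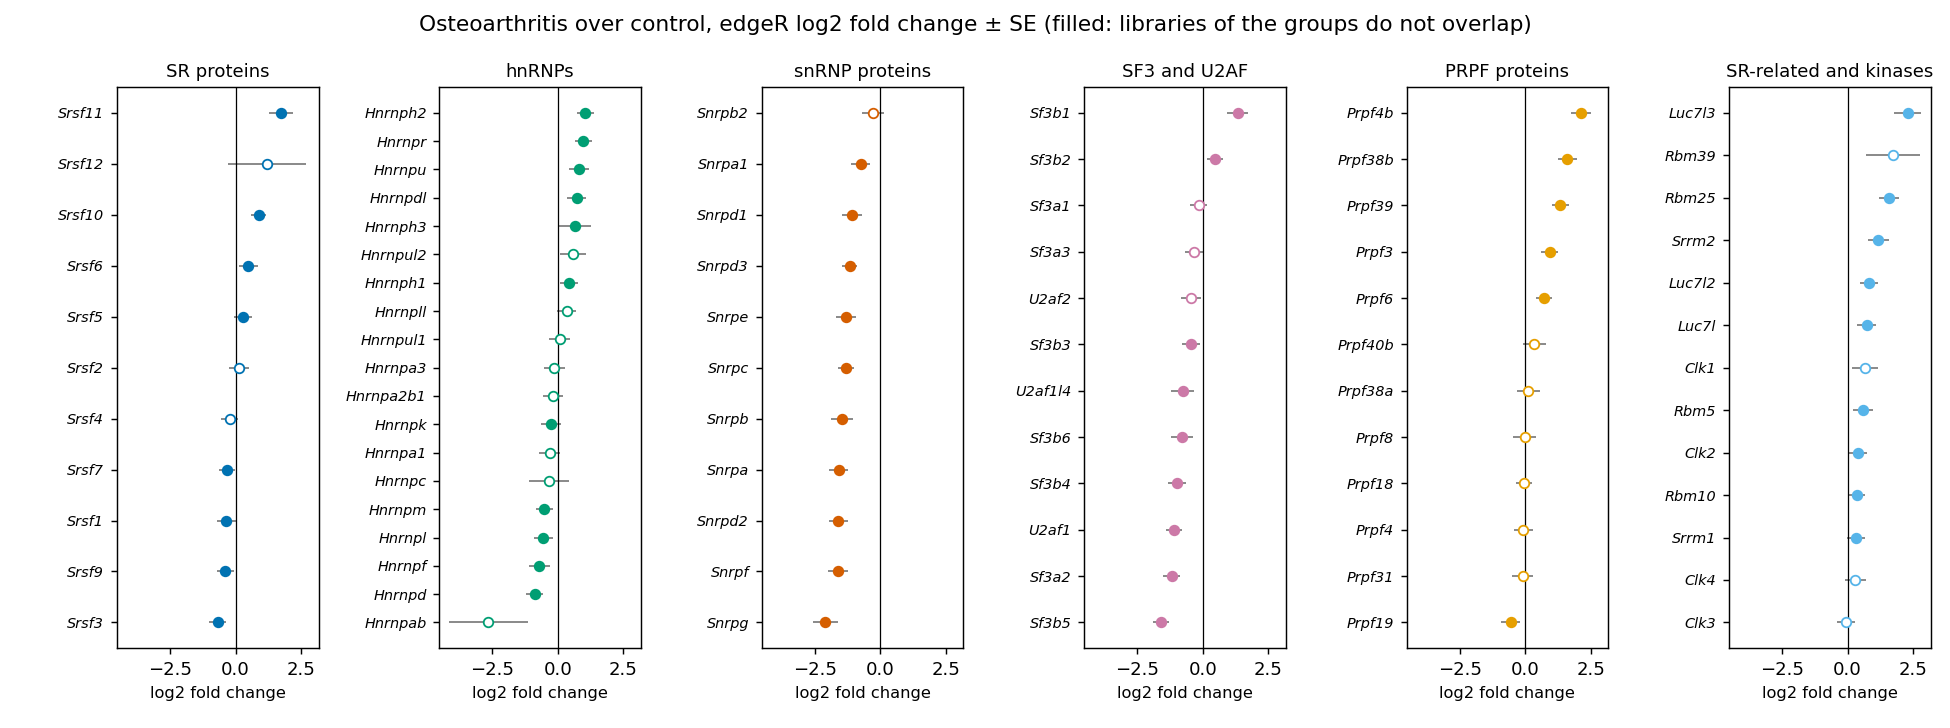
Points are edgeR log2 fold changes of 78 tested members, osteoarthritis over control, with bars of 1 standard error, 2 libraries a group, sorted within each of 6 families. Filled points have groups that do not overlap. All 11 snRNP points lie left of 0, and 12 of 13 SR-related points lie right of it.

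Most SR-related genes stood higher, while 3 of the 4 CLK kinases overlapped the controls. Of 13 tested, 9 lay above both controls, where 30% of all tested genes did, and 0 below both (26.5%), with a median log2 fold change of 0.68. That median was 0.44 without the second control and 0.36 without the first osteoarthritis library, and 0.20 once the length trend was subtracted. Adipocyte markers (1992 and 744 CPM in the controls, 10370 and 154 CPM in osteoarthritis) and endothelial markers (1066 and 481 CPM, then 1527 and 907 CPM) were, like most of these genes, higher in the first library of each group, and their part was not tested.

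Luc7l3, a U1-associated protein with a long arginine and serine rich tail, was the highest of all members, with 63.7 and 48.0 CPM in the control pair and 381 and 168 CPM in the osteoarthritis pair (log2 fold change 2.30 ± 0.52, edgeR adjusted p = 0.109, DESeq2 adjusted p = 0.00102). Its osteoarthritis libraries differed from each other, yet both stood above the controls. Rbm25, another U1-associated regulator, had 62.9 and 59.5 CPM in the control pair and 229 and 137 CPM in the osteoarthritis pair (log2 fold change 1.58 ± 0.39, edgeR adjusted p = 0.12). Srrm2, a scaffold of nuclear speckles, where splicing factors gather, had 234 and 252 CPM in the control pair and 478 and 619 CPM in the osteoarthritis pair (log2 fold change 1.17 ± 0.39). These were also the 3 genes, of 13 tested in the family, that DESeq2 called higher, where it called 7.11% of all genes higher. Luc7l2 and Luc7l, relatives of Luc7l3, had log2 fold changes of 0.81 and 0.73, and Rbm5, Rbm10 and Srrm1 had 0.59, 0.35 and 0.33, each above both controls.

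Rbm39, a coactivator that resembles U2af2, was high in 1 library only, with 17.6 and 48.8 CPM in the control pair and 194 and 24.7 CPM in the osteoarthritis pair. Its log2 fold change was 1.72 ± 1.02 (edgeR adjusted p = 0.37), and it became -0.48 when the first osteoarthritis library was left out. The CLK kinases, which release SR proteins from speckles, mostly overlapped the controls. Clk1 had 155 and 80.8 CPM in the control pair and 239 and 139 CPM in the osteoarthritis pair (log2 fold change 0.68 ± 0.49), and Clk4 had 54.2 and 29.2 CPM in the control pair and 53.7 and 48.3 CPM in the osteoarthritis pair (log2 fold change 0.29 ± 0.40). In each group the first library was the higher for both kinases, and without the second control Clk4 turned to -0.08. Clk2 lay above both controls (0.39) and Clk3 overlapped them (-0.06).

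PRPF proteins split into a higher set and a set near the controls. Of 13 tested, 6 (46.2%) lay above both controls and 1 below, where 30% and 26.5% of all tested genes did, with a median log2 fold change of 0.36, which ranged from 0.23 without the second control to 0.70 without the second osteoarthritis library. Prpf4b, a kinase that acts on the joining of U4, U5 and U6 to the spliceosome, had 54.2 and 51.0 CPM in the control pair and 278 and 180.4 CPM in the osteoarthritis pair (log2 fold change 2.12 ± 0.38, edgeR adjusted p = 0.0869, DESeq2 adjusted p = 9.70e-05). It had the smallest p of all members. Prpf38b had 47.1 and 37.5 CPM in the control pair and 154 and 103 CPM in the osteoarthritis pair (log2 fold change 1.60 ± 0.37, edgeR adjusted p = 0.111). Prpf39, linked to U1, had a log2 fold change of 1.35 ± 0.34, and Prpf3 and Prpf6, of the complex that joins U4, U5 and U6, had 0.93 and 0.72. In each of these genes both osteoarthritis libraries stood above the controls.

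The catalytic scaffold did not separate the groups. Prpf8, the largest protein of the spliceosome core, had 145 and 194 CPM in the control pair and 118 and 219.7 CPM in the osteoarthritis pair (log2 fold change -0.01 ± 0.44), and its sign changed with the scaling. Prpf4, Prpf31, Prpf18, Prpf38a and Prpf40b overlapped the controls too, with values from -0.09 to 0.36. Prpf19, a ubiquitin ligase needed for spliceosome activation, was the member below both controls, with 78.4 and 108 CPM against 51.6 and 76.2 CPM (-0.55 ± 0.37). The intervals of 2 libraries a group are wide, so an overlap does not show equal levels.

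The promoters of Prpf4b and Luc7l3, the members above both controls with the smallest p that have a RefSeq promoter, are given next. Capitals here mark another motif, the GC box GGGCGG or its reverse complement on either strand. It was left unmarked in the Sm promoters above, where Snrpb holds it.
Prpf4b (chr17:30224871-30225170, minus strand): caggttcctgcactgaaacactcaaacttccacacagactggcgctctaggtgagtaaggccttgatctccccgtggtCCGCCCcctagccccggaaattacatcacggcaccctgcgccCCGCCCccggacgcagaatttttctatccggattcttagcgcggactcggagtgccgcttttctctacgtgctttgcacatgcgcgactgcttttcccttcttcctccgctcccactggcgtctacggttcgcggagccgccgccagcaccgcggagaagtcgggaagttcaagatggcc
Luc7l3 (chr10:79773380-79773679, minus strand): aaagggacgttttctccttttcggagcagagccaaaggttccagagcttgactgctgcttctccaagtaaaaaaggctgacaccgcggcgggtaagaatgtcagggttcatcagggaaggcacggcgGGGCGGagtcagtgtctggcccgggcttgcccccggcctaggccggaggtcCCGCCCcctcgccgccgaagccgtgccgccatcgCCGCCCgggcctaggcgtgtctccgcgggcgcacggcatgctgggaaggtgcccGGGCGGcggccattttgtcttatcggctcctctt
Prpf4b held 2 matches and Luc7l3 held 4, and neither promoter held the ETS core. The GC box was present in 17 of 23 promoters of members above both controls (73.9%) and in 12 of 27 of members below both (44.4%). It was present in 3 of 11 snRNP promoters (27.3%) and in 59.8% of the promoters of tested genes. The CCAAT box (CCAAT) was present in 13 of those 23 and 14 of those 27, and in 37.4% of the promoters of tested genes. The TATA box (TATAAA) was present in 0 and 4, and in 7.46% of the promoters of tested genes. These motifs are short, and the counts carry no test.

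SR proteins lay on both sides of the controls. Of 11 tested, 4 (36.4%) lay above and 4 (36.4%) below both, near the 30% and 26.5% of all tested genes. Their median log2 fold change of 0.15 had no stable sign: it was -0.08 with the filter of 1 CPM in 2 libraries, -0.01 without the first control and -0.08 without the second osteoarthritis library. Srsf11, an SR protein that takes part in splice site choice, had 96.6 and 63.4 CPM in the control pair and 343 and 190.4 CPM in the osteoarthritis pair (log2 fold change 1.74 ± 0.47, edgeR adjusted p = 0.131). DESeq2 called it alone of the 11 tested in this family, where it called 7.11% of all genes higher. Srsf10, which acts as a repressor once dephosphorylated, had 46.6 and 47.7 CPM in the control pair and 81.8 and 92.6 CPM in the osteoarthritis pair (log2 fold change 0.89 ± 0.29, edgeR adjusted p = 0.172). Both stood above the controls in each osteoarthritis library. Srsf6 and Srsf5 were also above, at 0.49 and 0.28. Srsf5 had 149.9 and 141 CPM against 202 and 151 CPM, so its second osteoarthritis library stood just over the higher control.

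Srsf3, one of the smallest SR proteins, had 179.8 and 172 CPM in the control pair and 110.2 and 109.8 CPM in the osteoarthritis pair (log2 fold change -0.68 ± 0.32, edgeR adjusted p = 0.272). Srsf1, the founding member of the family, had 174 and 244 CPM against 155 and 173 CPM (-0.35 ± 0.36), with the lower control near the higher osteoarthritis library. Srsf9 and Srsf7 lay below both controls at -0.39 and -0.32. Srsf2, which marks nuclear speckles, overlapped the controls with 174 and 201 CPM against 164 and 251 CPM (0.15 ± 0.38), and its sign changed without the first control or the second osteoarthritis library. Srsf4 overlapped too (-0.22). Srsf12 stayed under 2 CPM in every library and overlapped.

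The hnRNPs were spread on both sides of the controls. Of 19 tested, 6 (31.6%) lay above both controls and 5 (26.3%) below, close to the 30% and 26.5% of all tested genes, and the median log2 fold change was -0.14. That median was 0.28 without the second control, 0.30 without the first osteoarthritis library and -0.44 without the second, so its sign rests on the libraries used. Hnrnph2, which binds runs of G, had 34.8 and 37.4 CPM in the control pair and 63.6 and 85.8 CPM in the osteoarthritis pair (log2 fold change 1.05 ± 0.32, edgeR adjusted p = 0.155), and Hnrnpr had 22.2 and 21.1 CPM in the control pair and 37.3 and 47.8 CPM in the osteoarthritis pair (log2 fold change 0.97 ± 0.32). Hnrnpu, a large protein that also binds chromatin, was above both controls at 0.81 ± 0.38, with Hnrnpdl, Hnrnph3 and Hnrnph1 at 0.71, 0.63 and 0.43.

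Hnrnpd, also known as AUF1, a factor of mRNA decay, had 163 and 182 CPM in the control pair and 84.2 and 102 CPM in the osteoarthritis pair (log2 fold change -0.89 ± 0.33, edgeR adjusted p = 0.194). Hnrnpf, a close relative of Hnrnph2 that binds like sequences, had 264 and 357 CPM in the control pair and 155 and 223 CPM in the osteoarthritis pair (log2 fold change -0.72 ± 0.40). These relatives thus lay on opposite sides of the controls, and the ratio of Hnrnph2 to Hnrnpf FPKM was 0.139 and 0.111 in control and 0.434 and 0.407 in osteoarthritis. The pair was chosen after its values were seen. Hnrnpl and Hnrnpm, both splicing repressors in many transcripts, lay below both controls at -0.55 and -0.51. Hnrnpk, which binds runs of C, had 351 and 371 CPM against 265 and 333 CPM (-0.27 ± 0.37), a narrow gap.

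The abundant hnRNPs of the A family overlapped the controls. Hnrnpa1 had 232 and 312 CPM in the control pair and 178 and 261 CPM in the osteoarthritis pair (log2 fold change -0.31 ± 0.40), and Hnrnpa2b1 had 230.5 and 256 CPM in the control pair and 171 and 251 CPM in the osteoarthritis pair (log2 fold change -0.20 ± 0.38). In both genes the first osteoarthritis library was the lowest of the 4, and Hnrnpa2b1 stood at 0.01 without it. Hnrnpa3 overlapped as well (-0.14). Hnrnpab had 4.36 and 119 CPM in the control pair and 15.9 and 3.59 CPM in the osteoarthritis pair, so 1 control held most of its reads, and the groups overlapped (log2 fold change -2.66 ± 1.51). Hnrnpc, known as one of the most abundant hnRNPs, had 30.02 and 12.0 CPM in the control pair and 7.26 and 26.1 CPM in the osteoarthritis pair, a low level that also differed within groups. Several of these genes have processed copies in rodent genomes, so reads could have been split.

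Per length, the order of the members changed between the groups. In control the highest mean levels were those of Snrpd2 (238 FPKM), Hnrnpa2b1 (221 FPKM) and Snrpe (178 FPKM), and 3 of the 10 highest members were snRNP proteins. In osteoarthritis the highest means were those of Hnrnpa2b1 (203 FPKM), Srsf5 (159 FPKM) and Luc7l3 (125 FPKM), and 0 of the 10 highest means were of snRNP proteins. By these means Snrpd2 was at rank 1 and then 13, and Luc7l3 at rank 49 and then 3 of 82. The osteoarthritis means join unlike libraries: Luc7l3 was at rank 3 in the first and 14 in the second, and Snrpd2 at rank 9 and 13. In single libraries 2 and 5 of the 10 highest members were snRNP proteins in control, and 1 and 0 in osteoarthritis. Neighbours in these orders often lie closer than the spread between libraries, as Hnrnpa1 (145 FPKM) and Hnrnpl (143 FPKM) do in control.

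Gene length moved with the fold change. Spearman's rho between length and log2 fold change was 0.66 over the 79 members and 0.382 over all 15282 tested genes. These are correlations across genes, which share the same 4 libraries and are no replicates. Of 11 members of up to 1 kb, 10 lay below both controls and 0 above, while among all genes of that class 62% lay below and 7.45% above. Of 16 members of 3 to 5 kb, 10 lay above and 1 below, against 40.3% and 15.4% of all genes of that class. The medians were close in this class, 0.48 for members and 0.46 for all genes.

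Some long members did not stand higher. Of 13 members over 4 kb, 7 lay above both controls, 2 below and 4 overlapped, where 50.0% of 3721 tested genes of that length lay above and 10.4% below. Srsf1 (5700 bp) and Sf3b3 (4435 bp) were the 2 below, and Prpf8 (7348 bp), Prpf18 (5427 bp) and Sf3a1 (5019 bp) were among those that overlapped. Luc7l3, at 2424 bp, was the highest member without being long. With the length trend subtracted the family medians were 0.26 for PRPF, 0.20 for SR-related, 0.09 for SR, -0.23 for hnRNP, -0.44 for SF3 and U2AF and -0.52 for snRNP proteins, against 0.68 for the SR-related genes before that step. The osteoarthritis libraries also held the larger shares of mitochondrial ribosomal RNA, 2.33% and 0.51% against 0.228% and 0.181%, and the part of length or RNA quality in these differences was not tested.

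**Figure D3:**
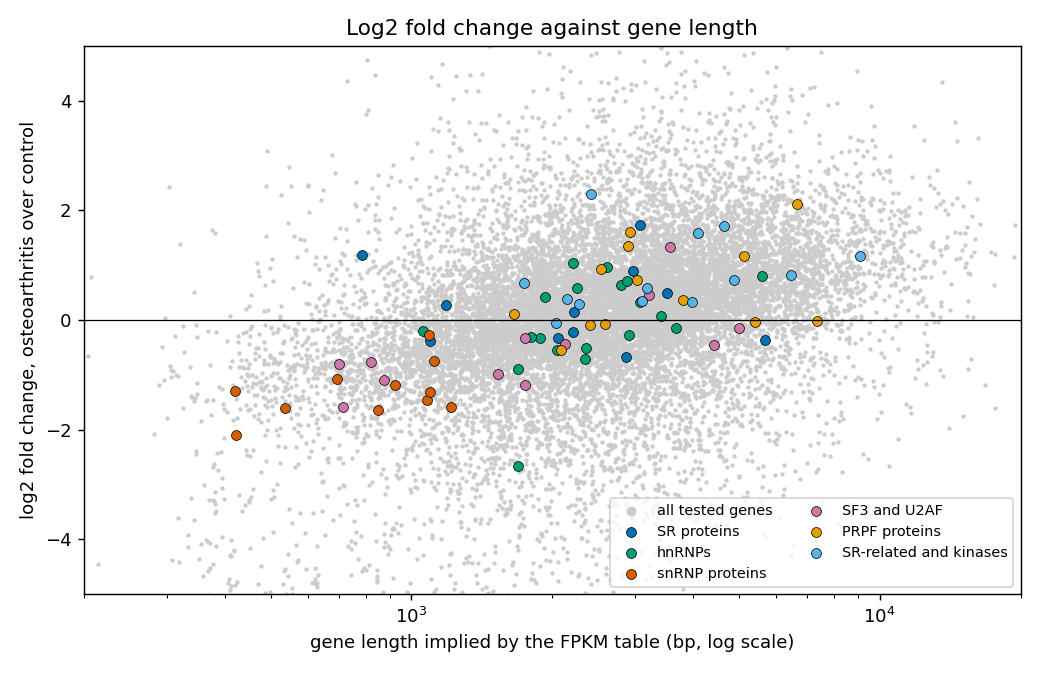
Log2 fold change of osteoarthritis over control against gene length (bp, log scale) for all 15282 tested genes (grey) and the 79 tested members (coloured by family). Of all genes, 463 lie outside the axes, which end at 5 log2 units. The snRNP points gather at the short, lower end, and Luc7l3 and Prpf4b are the highest members.

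Libraries of the same group also differed in these families. In 9 of 13 SR-related genes the second library was lower than the first in both groups, and the median difference was -0.31 log2 units between the osteoarthritis libraries and -0.41 between the controls. In 11 of 19 hnRNPs the second library was the higher in both groups, with medians of 0.43 and 0.14. The labels give no link between libraries of equal number, so this is a description of 2 separate pairs. More than 1 log2 unit separated the controls in 4 of 79 members, Hnrnpab, Rbm39, Hnrnpc and Snrpg. It separated the osteoarthritis libraries in 6, Rbm39, Hnrnpab, Srsf12, Hnrnpc, Hnrnpul2 and Luc7l3. For most members the libraries of a group thus differed by less than a doubling.

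**Figure D4:**
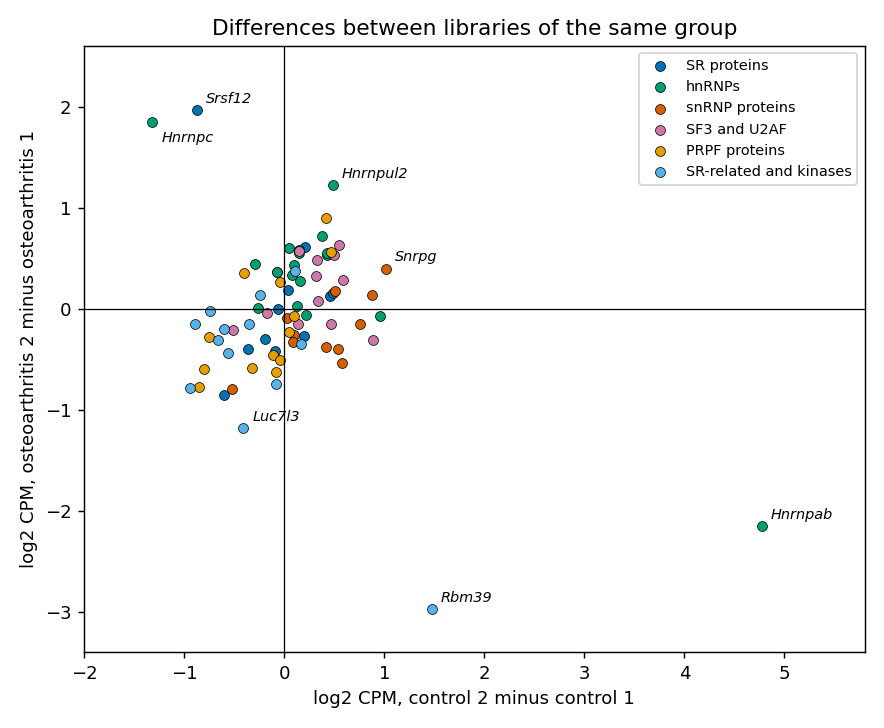
Each point is 1 of the 79 tested members, with the log2 CPM difference between the 2 controls across and that between the 2 osteoarthritis libraries upward. SR-related points (light blue) lie mostly below and left of 0, hnRNPs (green) mostly above and right, and Rbm39 and Hnrnpab stand apart.

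Other splicing genes were read in the same way. Of 36 other core spliceosome genes, 18 (50.0%) lay below and 6 (16.7%) above both controls, where 26.5% and 30% of all tested genes did, with a median log2 fold change of -0.25 and 0 called in either direction by edgeR's quasi-likelihood test. The LSm ring of U6 was lower in 7 of 7 subunits, from -2.25 for Lsm2 to -0.86 for Lsm6. These genes are short, 696 to 1362 bp, as is Bcas2 below (1054 bp). Of all tested genes, 62% of those up to 1 kb and 36.8% of those of 1 to 2 kb lay below both controls. The part of length in these values was not tested. Lsm4 had 93.0 and 85.8 CPM in the control pair and 25.7 and 25.4 CPM in the osteoarthritis pair (log2 fold change -1.81 ± 0.30, edgeR adjusted p = 0.0835). Bcas2, a small protein of the Prpf19 complex, had 95.0 and 113 CPM in the control pair and 27.8 and 31.5 CPM in the osteoarthritis pair (log2 fold change -1.81 ± 0.31). Of the genes above both controls Ddx46 and Snw1 had the smallest p, at 0.99 and 0.91. Ddx46 is a helicase that acts at the branch point, and Snw1 belongs to the activated spliceosome.

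Of 17 exon junction and SMN assembly genes, which mark spliced mRNA or load Sm rings onto snRNA, 9 (52.9%) lay below and 1 (5.88%) above both controls, against the same 26.5% and 30%, with a median of -0.36 and 0 called. The median length of these 17 genes was 1483 bp, against 2560 bp for all tested genes, and the part of length was not tested. Gemin6 (1148 bp) and Gemin7 (1139 bp), which form a pair inside the SMN complex, had log2 fold changes of -1.88 ± 0.58 and -1.49 ± 0.46. Casc3 of the exon junction complex was above at 1.80 ± 0.67, and Gemin4 overlapped at 0.42. Of 41 other splicing regulators tested, 19 (46.3%) lay above and 7 (17.1%) below both controls, against 30% and 26.5%, with a median of 0.45 and 0 called. Pnn, a speckle protein rich in serine and arginine, had 39.2 and 45.0 CPM in the control pair and 162 and 122 CPM in the osteoarthritis pair (log2 fold change 1.75 ± 0.34, edgeR adjusted p = 0.0911). Mbnl2, a muscleblind regulator, had 104 and 104 CPM in the control pair and 273 and 312 CPM in the osteoarthritis pair (log2 fold change 1.49 ± 0.34). Its relative Mbnl3 was at the other end, with 19.2 and 36.0 CPM in the control pair and 2.14 and 3.24 CPM in the osteoarthritis pair (log2 fold change -3.36 ± 0.57, edgeR adjusted p = 0.0835). Rnps1, of the exon junction complex, was at -0.58.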

How the data were processed

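RNA of 4 rat cartilage libraries was sequenced as poly(A) RNA. The authors deposited whole-number counts for each gene and, in a second table, FPKM. The submitters' processing notes name fastp and TopHat without versions and the build hg38, a human build, although the symbols are rat. No label states the counter, annotation or strandedness, so overlapping genes cannot be told apart. All 67506 FPKM values above 0 that the authors deposited equal count over length and column total (relative difference under 1e-06), so FPKM is no second measurement, and it supplied gene lengths. Members and gene lists were chosen with earlier results of these data known.

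Counts were fitted with edgeR 4.0.16 in R 4.3.3 (filterByExpr, TMM, quasi-likelihood F test, two-sided, Benjamini-Hochberg, threshold 0.05). CPM uses TMM-scaled library sizes, and standard errors are the log2 fold change over the root of F. With 2 against 2, the smallest p of an exact permutation test is 0.333, so that test was not used. Named genes were, per family and direction, up to 2 non-overlapping members with the smallest p and at least 5 CPM, 18 genes fixed by name, and up to 2 per pathway list and direction; others were named to complete a family or after their values were seen. DESeq2 1.42.0, limma 3.58.1 (voom, and trend on log2 FPKM), other scalings and filters, and fits without each library were alternatives. Qki was not analysed here. Values of 1 tested member are not reported here; it stays in the counts and medians and is left out of the plots that name genes. The fit was tested on simulated data. There, at the estimated dispersion, DESeq2 called more unchanged genes than edgeR did, and edgeR missed most changes of moderate size, so a count of 0 calls does not show that genes were unchanged. Depth was 24492412 to 28270779 counts, and count floors cover counting error only. Figures used matplotlib 3.10.9.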

Additional observations from a re-analysis of the deposited data

How the results depend on the processing

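edgeR's quasi-likelihood test called 0 members in each direction under every scaling, under the filter of 1 CPM in 2 libraries and without either control, and limma-voom and limma-trend also called 0. Without a low-count filter it called 5 higher and 5 lower, DESeq2 called 8 and 8, and edgeR's likelihood ratio test 6 and 6. Among all genes, the fit without a filter called 677 of 20196 higher and 751 lower. The likelihood ratio test called 965 of 15282 higher and 978 lower, and DESeq2 called 7.11% and 7.97%. Leaving out 1 library gave 0 to 7 members higher and 0 to 7 lower: 6 and 7 without osteoarthritis replicate 1, and 7 and 6 without osteoarthritis replicate 2. A library left alone in its group was taken to vary as the other 2 do. In each setting where members were called, calls over all tested genes also rose from 0, so the rise was not particular to the members. The cause of these differences was not tested. Leaving out 1 library gave 30 to 35 of 79 members above and 32 to 37 below the remaining controls, where fewer libraries make overlap rarer. Of all tested genes, 40.5% to 42.9% lay above and 33.3% to 36.8% below in those fits. Upper quartile factors gave 21 above and 33 below, against 27 and 27. The median of the members was 0.059 with library size alone, -0.14 with upper quartile factors, and 0.042 and 0.048 by limma-trend on log2(FPKM + 1) and log2(FPKM + 0.1). Without single libraries it ranged from -0.14 to -0.04. The median of all genes moved too, to 0.27 with library size alone and 0.05 with upper quartile factors. Prpf8 turned to 0.051 with library size alone, 0.0011 without a filter, and 0.038 and 0.039 by limma-trend on log2(FPKM + 1) and log2(FPKM + 0.1). Without single libraries it ranged from -0.52 to 0.33, Srsf2 from -0.18 to 0.38, Gemin4 from -0.018 to 0.96, Clk4 from -0.075 to 0.75, Hnrnpa2b1 from -0.50 to 0.013 and Rbm39 from -0.48 to 2.65. The other genes named by the rule kept their sign under the other scalings, filters and tests and without single libraries. With the length trend subtracted, Srsf9 turned from -0.39 to 0.13 and Hnrnpa2b1 from -0.20 to 0.34. Of the members outside that naming rule, Snrpe turned from -1.29 to 0.07, Snrpb2 from -0.27 to 0.25 and Sf3b6 from -0.80 to 0.09. Luc7l2 turned from 0.81 to -0.0043, Srrm1 from 0.33 to -0.16, Prpf40b from 0.36 to -0.10 and Hnrnpul1 from 0.07 to -0.31. No paired analysis was possible because the labels give no replicate number shared between the groups.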

Other observations

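A further 7 snRNP genes are spelled Snrnp and so fell outside the rule. Snrnp25 and Snrnp40, which belong to the minor spliceosome and to U5, stood at log2 fold changes of -1.46 ± 0.46 and -1.32 ± 0.34, with Snrnp40 at 35.1 and 42.2 CPM in the control pair and 16.9 and 14.2 CPM in the osteoarthritis pair. Snrnp35 and Snrnp27 lay below both controls as well, at -0.73 and -0.43. Snrnp200, the helicase of U5, overlapped the controls (-0.10). Snrnp70, the U1-70K protein, and Snrnp48 lay above both, with Snrnp70 at 169 and 147 CPM in the control pair and 235 and 244 CPM in the osteoarthritis pair (0.60 ± 0.34) and Snrnp48 at 1.41 ± 0.40. Proteins of U1 therefore stood on both sides of the controls, Snrpa and Snrpc below and Snrnp70 above, and none passed edgeR's quasi-likelihood test with adjustment over all genes. The difference between them was not tested.

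Rbfox2, a regulator of exons in muscle and mesenchymal cells, was singled out after its values were seen. It had 2.82 and 2.80 CPM in the control pair and 12.0 and 53.7 CPM in the osteoarthritis pair (log2 fold change 3.54 ± 0.82, edgeR adjusted p = 0.111, DESeq2 adjusted p = 3.46e-04). Most of it lay in the osteoarthritis library in which tendon and ligament markers summed to 7580 CPM, against 466 CPM in the other, and the part of these markers in the result was not tested.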
